A study of Saccharomyces cerevisiae with 14 samples.

Results

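Ribosomal RNA (rRNA) made up 33.9% to 53.6% of the reads in the 10 libraries of this study from cells with a tagged protein. Over all libraries the range was 33.3% to 82.1%. Both ends came from the untagged libraries at 20°C, which held only 829 and 44859 reads on features. The features described here are the 16 that the deposited count files list as rRNA, out of 21289 features of all classes. They were grouped by name into the 35S precursor (RDN37-1 and RDN37-2), 18S (RDN18-1 and RDN18-2), 25S (RDN25-1 and RDN25-2), 5.8S (RDN58-1 and RDN58-2), 5S (RDN5-1 to RDN5-6) and the mitochondrial 15S and 21S rRNAs. No feature of the files is a transcribed spacer, so the spacers were measured as the reads on the 35S features that exceeded the sum on 18S, 5.8S and 25S. Of the 16 features, 11 to 16 had at least 1 sense read in a library.

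The libraries were made by crosslinking and analysis of cDNA (CRAC), in which a protein carrying an HTP tag is crosslinked to RNA by UV light and purified under denaturing conditions, and the RNA attached to it is sequenced. The study asked where on RNA the collision sensor Hel2, an E3 ubiquitin ligase that binds ribosomes stalled against each other, is found when New1, a homologue of the elongation factor eEF3, is missing. All 14 libraries came from *Saccharomyces cerevisiae* BY4741, a haploid laboratory strain, in 7 groups of 2 replicates each. At 30°C these were untagged wildtype cells, cells with the genotype Hel2-HTP::URA3, and cells with Hel2-HTP::URA3 and new1-delta::KanMX6 (*new1Δ*). The same strains were grown at 20°C, where New1-HTP::URA3 in wildtype cells was added. Per the labels, all cultures were in medium without tryptophan, and per the study's methods the 20°C medium also lacked uracil. Culture volume, RNase treatment, gel or membrane steps and size selection differed between the temperatures, so that temperature and preparation cannot be told apart. At 20°C the RNase treatment also differed between the Hel2-HTP libraries and the New1-HTP and untagged ones, and each replicate number was sequenced in a run of its own.

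In yeast, 18S, 5.8S and 25S rRNA are cut from a single 35S precursor made by RNA polymerase I, and 5S rRNA is transcribed by RNA polymerase III from the opposite strand of the same repeat. 18S rRNA is the RNA of the small (40S) subunit, which reads the mRNA. 25S, 5.8S and 5S rRNA belong to the large (60S) subunit, which joins amino acids. The 5′ external, first internal, second internal and 3′ external spacers (5′-ETS, ITS1, ITS2, 3′-ETS) are removed and degraded during maturation, and 15S and 21S rRNA are the RNAs of the mitochondrial ribosome.

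Chromosome XII holds a long array of rDNA repeats, of which the R64 assembly shows only the copies listed. On its minus strand, RDN37-1 spans positions 451575 to 458432 and contains RDN25-1 (451786 to 455181), RDN58-1 (455414 to 455571) and RDN18-1 (455933 to 457732). RDN37-2 spans 460712 to 467569, with RDN25-2 at 460923 to 464318, RDN58-2 at 464551 to 464708 and RDN18-2 at 465070 to 466869. The mature RNAs have 1800 nt (18S), 158 nt (5.8S) and 3396 nt (25S), and the spacers of 700, 361, 232 and 211 nt in the order above make up 1504 nt, or 21.9% of the 6858 nt of the 35S feature. The 2 copies of 18S, of 25S and of 5.8S are identical in sequence, and the reads on the 35S copies split almost evenly in each tagged library, with 49.9% to 50.1% on the first copy. A read that could be placed on several copies was assigned to one at random, so copies of identical sequence say nothing about single repeats and were summed.

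The 5S copies are not all alike, and both forms are shown because the 5S reads were spread unevenly between them. RDN5-1 (plus strand, 459676 to 459796, 121 nt) and RDN5-6 (489349 to 489469) have 1 sequence, and RDN5-2 (468813 to 468931, 119 nt) to RDN5-5 have another. In the R64 sequence from RefSeq, the 2 forms first differ at position 118, where capitals begin:
RDN5-1: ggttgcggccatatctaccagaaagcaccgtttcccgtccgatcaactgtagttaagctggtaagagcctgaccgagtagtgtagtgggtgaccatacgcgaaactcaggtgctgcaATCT
RDN5-2: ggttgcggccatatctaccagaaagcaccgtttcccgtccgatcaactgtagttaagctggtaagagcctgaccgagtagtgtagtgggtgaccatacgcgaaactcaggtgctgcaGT
Only a read that reaches the last bases of 5S can therefore be told to come from 1 form or the other.

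The 5.8S RNA, which pairs with 25S in the large subunit, is shown as the other short species that was higher at 20°C. It carries no capitals, since no base of it was singled out:
RDN58-1: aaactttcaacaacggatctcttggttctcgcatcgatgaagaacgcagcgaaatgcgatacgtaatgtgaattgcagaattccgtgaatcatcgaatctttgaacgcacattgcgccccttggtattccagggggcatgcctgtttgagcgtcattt

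The library labels were first checked on the deleted gene. *NEW1* had 363 and 1192 reads in the Hel2-HTP wildtype libraries at 20°C and 0 in both *new1Δ* libraries. At 30°C, wildtype had 220 and 105 reads on it, while *new1Δ* had 0 and 7. *HEL2*, which no label gives as deleted, was looked at too. At 20°C it had 515 and 315 reads in Hel2-HTP wildtype, 170 and 0 in *new1Δ*, and 1 and 143 in New1-HTP. At 30°C it had 217 and 129 in wildtype and 154 and 120 in *new1Δ*. The cause of the counts of 0 and 1 was not tested, so *HEL2* did not bear out the labels of these libraries. The input names in the headers of 2 files, Hel2-HTP *new1Δ* at 20°C replicate 2 and New1-HTP replicate 2, differed from their labels, and the labels were kept. Without the 35S features, the 10 tagged libraries held 925729 to 2948652 reads on features, and rRNA there held 5.78 to 16.7 reads per distinct cDNA. The 4 untagged libraries had 829 to 1187552 reads, and the untagged library at 20°C with 829 reads and its replicate with 44859 entered no test. Reads are not independent molecules, so the 95% Wilson intervals given here cover counting error only. The p-values come from comparisons between libraries, with 2 replicates in each group.

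The rRNA share of the reads was between 33.9% and 53.6% in the tagged libraries. At 20°C, rRNA made up 36.7% and 39.5% of the reads in the Hel2-HTP wildtype libraries and 43.6% and 53.6% in the *new1Δ* libraries. The groups did not overlap at this temperature, with means of 38.1% ± 1.99 and 48.6% ± 7.09 (SD, n = 2). At 30°C the wildtype libraries had 46.1% and 50.6% and the *new1Δ* libraries 49.5% and 47.9%, and these overlapped. New1-HTP had 34.9% and 33.9%, both below the Hel2-HTP libraries at 20°C. Untagged cells at 30°C had 64.9% and 52.6%, both above each Hel2-HTP library at that temperature. The untagged libraries at 20°C had 33.3% (Wilson interval 30.2% to 36.6%) and 82.1%, and they stood further apart than any other pair.

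None of these differences passed the exact two-sided permutation test, in which libraries were exchanged only within temperature or within strain. The smallest p it can give is 0.0556 for the strain and temperature comparisons, 0.333 for New1-HTP against Hel2-HTP and 0.0667 for the 4 Hel2-HTP against the 2 untagged libraries at 30°C. In all, 24 such tests were made, over 6 measures, and adjusted together. The share was 5.43 percentage points higher on average in *new1Δ* (exact p = 0.167, adjusted 0.4), from a mean difference of 10.5 points at 20°C and 0.332 points at 30°C. Between New1-HTP and Hel2-HTP it differed by −3.67 points (exact p = 0.333), and between Hel2-HTP and untagged at 30°C by −10.2 points (exact p = 0.0667, adjusted 0.229). Since a share of reads falls when another class of RNA rises, the tRNA share is given beside it: 19.8% and 16.5% with New1-HTP, against 6.58% to 7.97% in the Hel2-HTP libraries at 20°C. Taken over rRNA and mRNA reads alone, the share was 2.35 points higher with New1-HTP, the opposite direction.

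**Figure D1:**
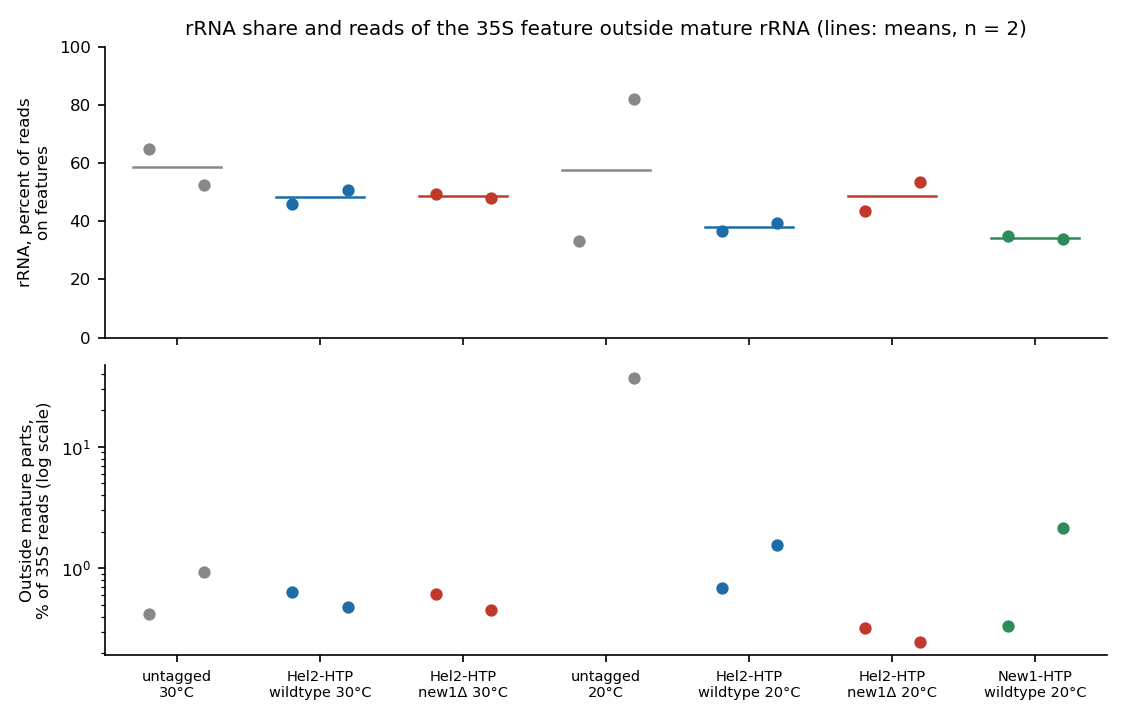
The upper panel plots rRNA reads as percent of all reads on features per library, and the lower panel the percent of 35S reads beyond the mature rRNAs on a log axis. Points are libraries, and lines in the upper panel are means of 2 replicates. The untagged library at 20°C with 0 such reads is left out of the lower panel, where its replicate stands apart at 37.1%.

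Within rRNA, the tagged and untagged libraries differed first of all in the balance of 18S and 25S. Of the rRNA reads in untagged cells at 30°C, 4.97% and 11.5% were 18S and 92.0% and 84.1% were 25S. In Hel2-HTP wildtype cells at the same temperature, 71.7% and 66.9% were 18S and 22.2% and 27.7% were 25S. The *new1Δ* libraries had 63.0% and 70.3% 18S and 31.9% and 24.1% 25S. No Hel2-HTP library overlapped with an untagged one at 30°C in either species.

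In reads, this gave 0.0540 and 0.137 reads on 18S for each read on 25S in the untagged libraries. The Hel2-HTP wildtype libraries had 3.23 and 2.41, and the *new1Δ* libraries had 1.98 and 2.91. The 4 Hel2-HTP libraries exceeded the 2 untagged ones 30.1-fold in this ratio, or by 4.91 on the log2 scale (exact p = 0.0667, the smallest possible, adjusted 0.229). The log2 difference was 4.06 with the reads of the YLR154W-A window, described further on, taken out of 25S (an alternative added after the data were seen). It was 3.49 in distinct cDNAs, 4.24 without untagged replicate 1 and 5.58 without untagged replicate 2. Since 25S is longer, the ratio per nucleotide is higher, at 5.33 ± 1.09 in Hel2-HTP wildtype cells and 0.180 ± 0.111 in untagged cells (SD, n = 2). Reads at 30°C thus fell more densely on 18S than on 25S in the Hel2-HTP libraries, and more densely on 25S in the untagged libraries. In the untagged libraries at 20°C the ratio per nucleotide was 1.38, resting on 105 and 144 reads, and 1.66, so that 18S was the denser there too.

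The fit across all features took the other RNAs as the reference. The table of reads was fitted with edgeR's quasi-likelihood test after TMM scaling, with the copies of a species in 1 row, and a row was called at a Benjamini-Hochberg adjusted p of 0.05. Against untagged cells at 30°C, 60 of 5681 rows were called in the Hel2-HTP wildtype libraries (1.06%), all of them higher. Of the 6 rRNA species, 18S was called, at 11.8-fold (log2 3.56 ± 0.41 SE, edgeR adjusted p = 0.0232). The log2 difference of 5.8S was 1.27 ± 0.40 (adjusted p = 0.222), that of 25S was −1.52 ± 0.49 (adjusted p = 0.235) and that of 5S was 0.21 ± 0.42 (adjusted p = 0.926), none of which passed.

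The 18S call was lost without untagged replicate 1 (edgeR adjusted p = 0.261), without Hel2-HTP replicate 2 (adjusted p = 0.0618), and with only the compared libraries in the fit. With a replicate left out, the filter on low counts kept 6877 to 7366 rows. With the 5681 rows of the full fit in its place, an alternative added after the data were seen, the call was lost without each of the 4 replicates (adjusted p = 0.208 to 0.332). Over the other 13 alternatives, 18S was called in 10, and its log2 difference ran from 2.30 in distinct cDNAs to 3.98.

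**Figure D2:**
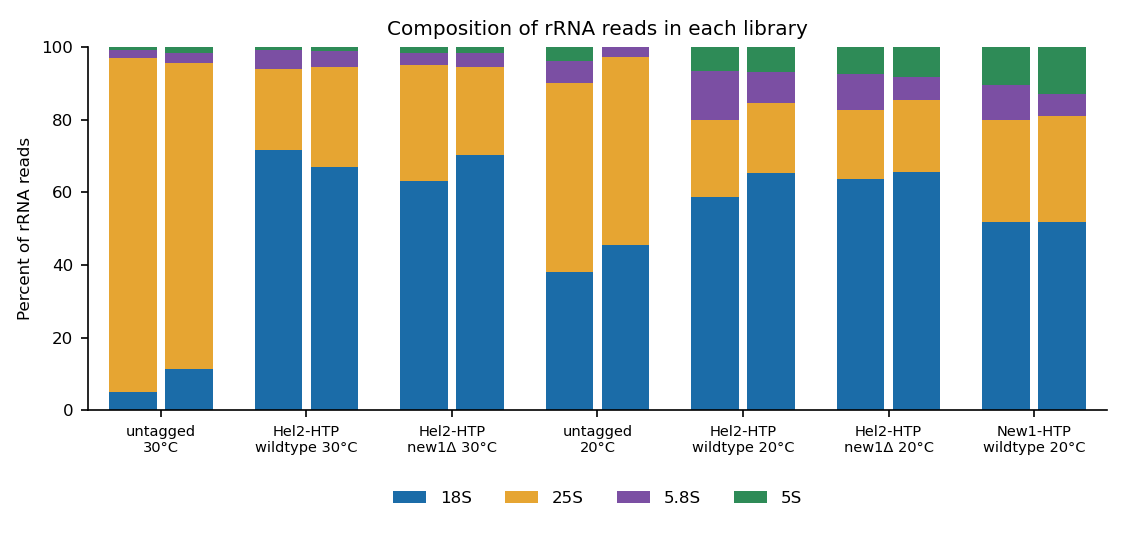
Each bar is 1 library, stacked to the percent of its rRNA reads on 18S, 25S, 5.8S and 5S. 18S fills 51.9% to 71.7% of the bar in the tagged libraries, and 25S fills 92.0% and 84.1% in the untagged libraries at 30°C.

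At 20°C, the Hel2-HTP libraries again held mostly 18S. It made up 58.9% and 65.2% of rRNA reads in wildtype and 63.6% and 65.5% in *new1Δ*. 25S made up 21.2% and 19.4% in wildtype and 19.1% and 19.9% in *new1Δ*, and these 4 shares lay below the 22.2% to 31.9% of the 4 libraries at 30°C. 5.8S and 5S lay higher than at 30°C. 5.8S had 13.5% and 8.37% in wildtype and 9.95% and 6.41% in *new1Δ*, against 3.53% to 5.19% in the 4 libraries at 30°C. 5S had 6.43% and 6.91% in wildtype and 7.35% and 8.15% in *new1Δ*, against 0.890% to 1.70% at 30°C.

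Set per nucleotide against 25S, 5S reads were 8.63 and 10.1 times as dense in wildtype at 20°C, and 1.14 and 1.11 times at 30°C. In *new1Δ* these ratios were 10.9 and 11.6 at 20°C and 1.34 and 1.99 at 30°C. Every Hel2-HTP library at 20°C lay above every one at 30°C. Over strains, the 5S to 25S ratio was 7.56-fold higher at 20°C (log2 2.92, exact p = 0.0556, the smallest possible, adjusted 0.229). At 20°C the 5.8S to 25S ratio per nucleotide was 13.7 and 9.25 in wildtype, and 11.2 and 6.91 without New1. At 30°C it was 5.03 and 3.37 in wildtype and 2.38 and 3.43 in *new1Δ*, again with no overlap. Its difference between temperatures was 2.90-fold (log2 1.54, exact p = 0.0556, adjusted 0.229). Reads of the YLR154W-A window, described further on, took a larger part of 25S at 30°C than at 20°C. The 5S and 5.8S ratios were not computed without them. For 18S over 25S the difference was 0.30 on the log2 scale (exact p = 0.222), and the libraries overlapped.

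Relative to all other RNAs, 45 of 6351 rows (0.709%) were called between the temperatures, 11 higher and 34 lower at 20°C, and 3 of the 6 rRNA species were among them. 5S was 4.23-fold higher (log2 2.08 ± 0.20 SE, edgeR adjusted p = 3.8e-05) and 5.8S was 1.63-fold higher (log2 0.70 ± 0.15, adjusted p = 0.0377). 25S was lower, at 0.555 of its level at 30°C (log2 −0.85 ± 0.15, adjusted p = 0.0101). Within 25S, the YLR154W-A window, described further on, held 23.3% to 48.6% of the reads of its copy in the Hel2-HTP libraries at 30°C. In the tagged libraries at 20°C it held 8.05% to 11.1%. The fit was not run without this window, so its part in the 25S difference was not tested. 18S had a log2 difference of −0.53 ± 0.15 (adjusted p = 0.161), but was called lower in 9 of 15 alternatives, the 8 fits without a replicate among them (log2 −0.67 to −0.10 over all 15). Those fits kept 7775 to 8227 rows, and with the rows of the full fit 18S was called in 3 of 8 (adjusted p = 0.00029 to 0.476) and 5.8S in 4 of 8 (adjusted p = 0.00114 to 0.214), while 5S and 25S were called in all 8. The median of all rows in this fit was −0.87, so 25S lay at that median and 5S and 5.8S above it. The 25S call was lost with DESeq2 (adjusted p = 0.0885) and in distinct cDNAs, and the other 2 were called in both. These differences are between libraries prepared by different steps, and what belongs to temperature cannot be told apart.

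**Figure D3:**
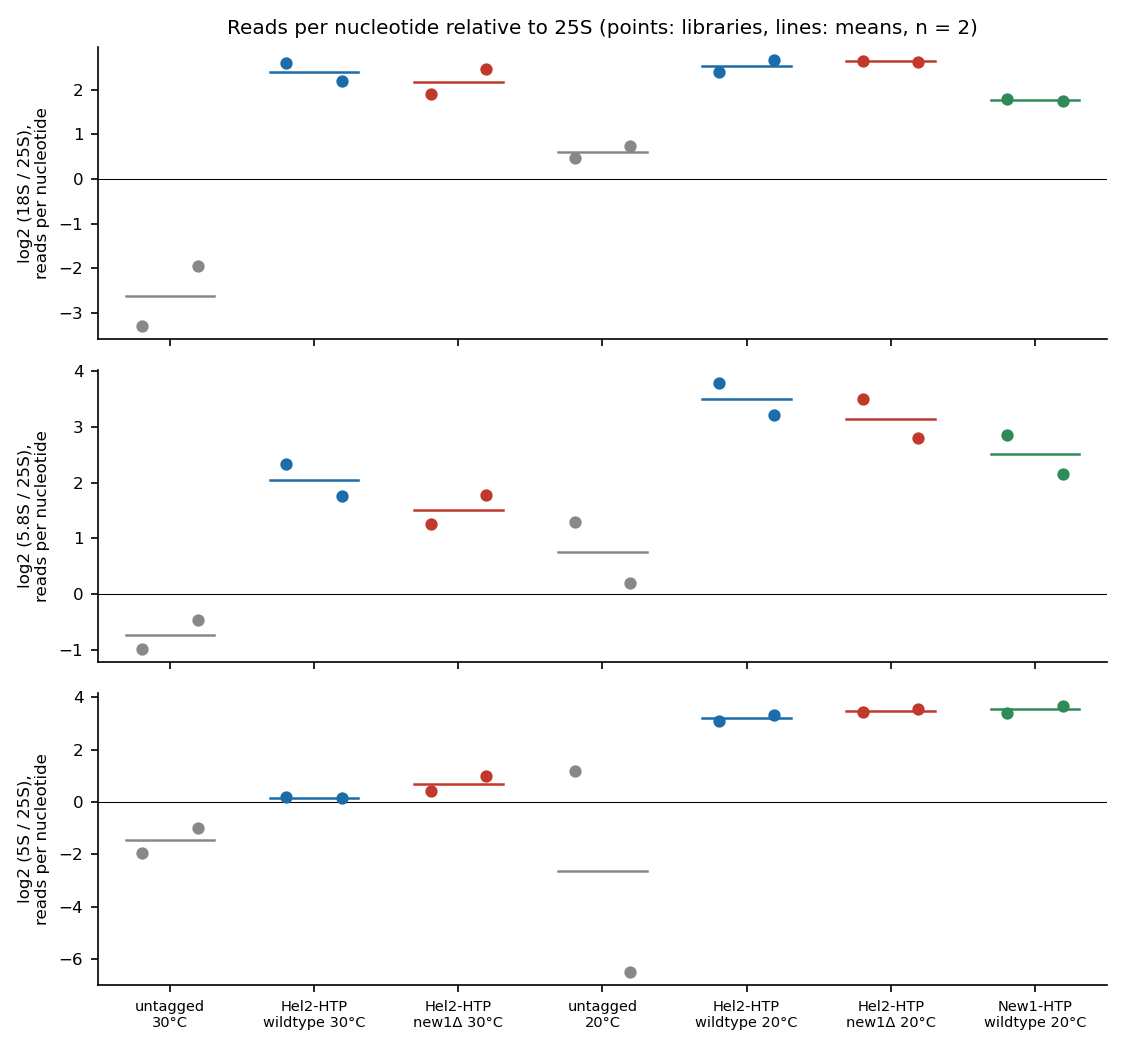
Each panel plots the log2 of reads per nucleotide of 18S, 5.8S or 5S over those of 25S, with points for libraries and lines for means of 2 replicates. For 5S the ratios of the 6 tagged libraries at 20°C lie between 8.63 and 12.7 and the Hel2-HTP libraries at 30°C between 1.11 and 1.99.

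The 5S reads that were higher at 20°C lay mainly on 1 of the 2 forms shown above. With reads spread evenly over copies, RDN5-1 and RDN5-6 would hold 33.3% of the 5S reads. They held 40.1% and 60.0% in Hel2-HTP wildtype and 45.1% and 53.0% in *new1Δ* at 30°C. At 20°C they held 80.6% and 83.7% in wildtype and 83.4% and 85.1% in *new1Δ*, all 4 above the libraries at 30°C. New1-HTP had 68.9% and 84.1%. In untagged cells at 30°C the shares were 35.6% and 36.1%, close to an even spread.

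In a wildtype Hel2-HTP library at 20°C, for example, RDN5-1 and RDN5-6 had 13914 and 13741 reads while each of the copies RDN5-2 to RDN5-5 had 1619 to 1698. Copies of the first form thus held 8.33 and 10.2 times the reads of those of the second form in wildtype at 20°C. In *new1Δ* at 20°C this was 10.1 and 11.4 times. At 30°C it was 1.34 and 2.996 times in wildtype and 1.64 and 2.25 times in *new1Δ*. In distinct cDNAs the ratio was smaller, 2.62 to 5.06 in the 6 tagged libraries at 20°C. With each copy as a row of its own, RDN5-1 and RDN5-6 were called between temperatures (log2 2.79 ± 0.29 and 2.79 ± 0.27 SE, edgeR adjusted p = 6.3e-05 for both). RDN5-2 to RDN5-5 had log2 differences of 0.49 to 0.57 and did not pass (adjusted p = 0.473 to 0.588). From the second form alone, the 5S to 25S ratio was 1.34 higher on the log2 scale at 20°C (exact p = 0.0556), against 2.92 from all copies. Reads that end before the last bases of 5S cannot be assigned to a form, and read lengths were not used here.

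**Figure D4:**
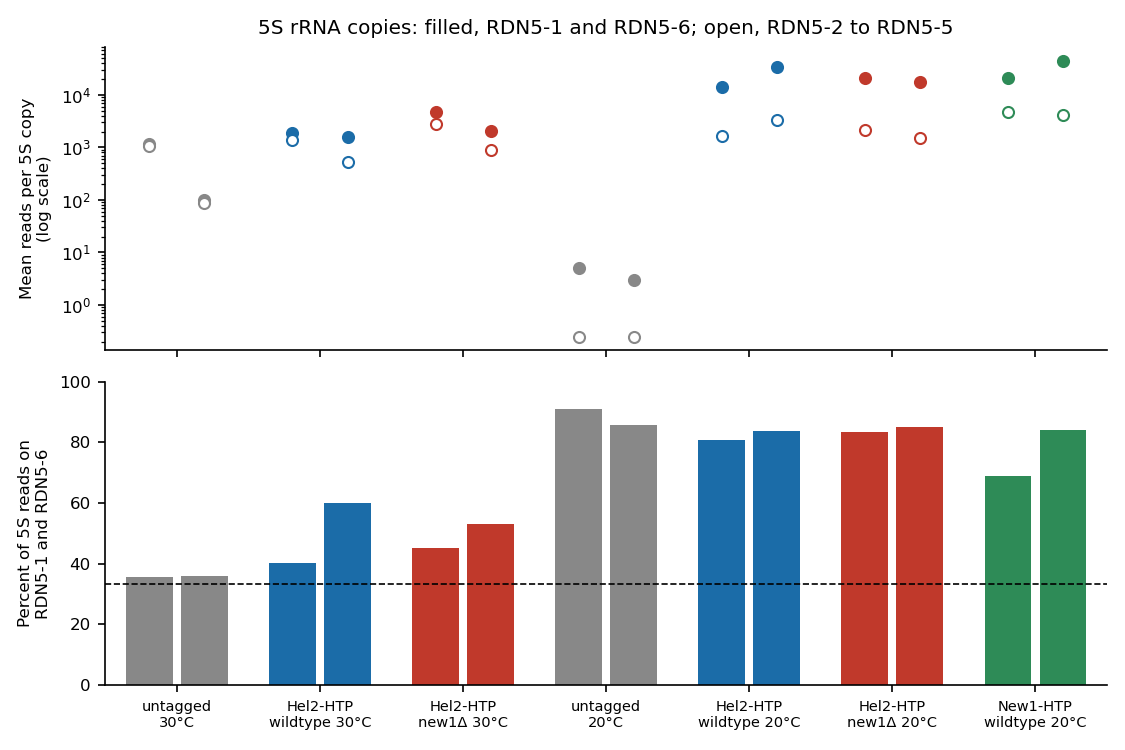
The upper panel plots mean reads per copy on the first form of 5S (RDN5-1 and RDN5-6, filled) and on the second (RDN5-2 to RDN5-5, open) on a log axis, and the bars below give the percent of 5S reads on the first form, with the even spread of 33.3% dashed. The tagged libraries at 20°C lie at 68.9% to 85.1%, those at 30°C at 40.1% to 60.0%, and the untagged libraries at 20°C rest on 11 and 7 reads.

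Loss of New1 was compared within each temperature. At 20°C, 18S was higher in *new1Δ*, by 1.64-fold (log2 0.71 ± 0.11 SE, edgeR adjusted p = 0.0147), and it was the only rRNA species among 28 of 6351 rows called (0.441%). Of the reads per library, wildtype had 313707 and 759074 on 18S, or 21.6% and 25.7% of all reads, while *new1Δ* had 438362 and 325099, or 27.7% and 35.1%. The shares did not overlap. For 5S the log2 difference was 0.87 ± 0.17 (adjusted p = 0.0656), for 25S it was 0.60 (adjusted p = 0.538) and for 5.8S it was 0.24 (adjusted p = 0.945). The median of all rows was −0.66, below each of the 4 cytosolic species.

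The 18S call rested on the pairing of replicates in the fit. Without it, the log2 difference was 0.69 and the edgeR adjusted p was 0.353. With a replicate left out, the log2 difference was 0.45 to 0.81. The partner of that replicate then stood alone in its block, so 1 whole pair carried the effect at 20°C. The call was lost in these fits, but this was largely set by the design and does not weigh on the call. At 30°C none of the rRNA species passed, with 6 of 6351 rows called (0.0945%). DESeq2, a second count test, called 5S there, which was also the only one with an unadjusted p under 0.05, as 111 of all rows had. The share of all rows that DESeq2 called is not given here. The log2 differences were 0.05 for 18S, 0.27 for 25S, −0.25 for 5.8S and 0.81 ± 0.17 for 5S (adjusted p = 0.241). The difference between temperatures in the effect of *new1Δ* was called for none of them by edgeR or DESeq2, with 3 rows called in all (0.0472%), although 18S and 5.8S had unadjusted p under 0.05, as 124 of all rows did. For 18S it was 0.66 ± 0.15 (edgeR unadjusted p = 9.7e-04, adjusted 0.576).

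As ratios within rRNA, 5S to 25S was a measure on which *new1Δ* and wildtype did not overlap at either temperature. It was 9.36 ± 1.02 per nucleotide in wildtype and 11.3 ± 0.482 in *new1Δ* at 20°C, and 1.12 ± 0.0206 and 1.66 ± 0.463 at 30°C (SD, n = 2). The mean difference was 1.32-fold (log2 0.40, exact p = 0.0556, the smallest possible, adjusted 0.229). Given the lack of overlap, *new1Δ* was higher however replicates were paired within a temperature. From the second form of 5S alone it was 0.34 on the log2 scale (exact p = 0.0556). 5.8S to 25S differed by −0.44 on the log2 scale (exact p = 0.222). 18S to 25S differed by −0.05 (exact p = 0.722), with 0.12 at 20°C and −0.22 at 30°C. Thus 18S and 25S kept a similar ratio in both strains, within the spread of the replicates, while the rRNA share at 20°C differed as given above.

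New1 was compared with Hel2 as the tagged protein, in wildtype cells at 20°C. 18S made up 51.9% of the rRNA reads in both New1-HTP libraries, and 25S 28.1% and 29.1%. Each New1-HTP library had less 18S and more 25S than each Hel2-HTP library at this temperature. Per nucleotide, 18S to 25S was 3.49 and 3.37 with New1-HTP, against 5.25 and 6.33 with Hel2-HTP. The difference was −0.75 on the log2 scale (exact p = 0.333, the smallest possible), and 18S was still the denser of the pair with both proteins.

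5S made up 10.6% and 13.0% of rRNA reads with New1-HTP, the highest shares in the series. Per nucleotide over 25S it was 10.7 and 12.7, against 8.63 and 10.1 with Hel2-HTP in wildtype (log2 0.32, exact p = 0.333). 5.8S made up 9.44% and 6.01%, and its ratio to 25S was 7.23 and 4.44 per nucleotide, below the 13.7 and 9.25 with Hel2-HTP (log2 −0.99, exact p = 0.333). In the fit across all features, 2 of 5161 rows were called (0.0388%) and no rRNA species. The log2 differences were 0.69 ± 0.26 for 5S, 0.37 ± 0.19 for 25S, −0.40 ± 0.20 for 18S and −0.60 ± 0.25 for 5.8S, each with an edgeR adjusted p of 0.937, and those of 5S and 5.8S had an unadjusted p under 0.05, as 151 of all rows did. With the replicate number as a block, 5S passed (edgeR adjusted p = 0.0315), and so it did with DESeq2 (adjusted p = 0.0227). The shares of all rows called in these fits are not given here. RNase treatment differed between these libraries, and its part in the differences was not tested.

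Within 25S, the files allow a coarse look at position, since several short protein-coding features are annotated inside the rDNA and count the same reads. The windows described here were chosen after their values were seen, so they are given without a test. Reads on the rDNA strand were used for each window. The YLR154C-G window covers positions 1648 to 1797 of 25S (chromosome XII, 462522 to 462671, minus strand) and is shown because it held more reads than its length would in the tagged libraries at 20°C and fewer in the untagged ones at 30°C:
YLR154C-G window: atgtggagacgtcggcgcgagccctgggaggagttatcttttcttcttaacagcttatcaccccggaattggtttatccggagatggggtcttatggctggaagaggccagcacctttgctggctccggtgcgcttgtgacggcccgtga

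This stretch is 4.42% of the length of 25S. It held 13.8% and 13.1% of the reads of its 25S copy in Hel2-HTP wildtype at 20°C and 13.9% and 16.6% in *new1Δ*. New1-HTP had 10.3% and 9.72%. At 30°C the share was 5.28% and 3.62% in wildtype and 3.52% and 3.43% in *new1Δ*, and in untagged cells it was 1.16% and 1.67%. The 6 tagged libraries at 20°C lay above all libraries at 30°C, and the untagged ones lay lowest. A window's share of its copy falls when another stretch holds more reads, as YLR154W-A, described next, did at 30°C. The shares of the other windows were not computed without it.

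Another window showed the reverse. YLR154W-A, 186 nt or 5.48% of the length, held 71.2% and 49.6% of the reads of its 25S copy in untagged cells at 30°C. In that temperature's Hel2-HTP libraries it held 25.2% and 24.9% in wildtype and 48.6% and 23.3% in *new1Δ*. Its share was 8.05% to 11.1% in the 6 tagged libraries at 20°C. Thus 1 short stretch carried most of the 25S reads in 1 untagged library, and the *new1Δ* replicate 1 at 30°C stood apart from the other 3 Hel2-HTP libraries. Its position was not taken from the R64 table, but it lies in 25S, because in untagged replicate 1 its 252294 reads exceeded the 29050 reads of RDN37-1 outside RDN25-1.

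When the reads of that window were removed from 25S, the log2 difference of the 18S to 25S ratio between *new1Δ* and wildtype changed from −0.05 to 0.0764, and that between temperatures from 0.30 to −0.11. The window at positions 112 to 486, where *TAR1* is annotated on the other strand, covers 11.0% of 25S. It held 2.41% and 5.08% of the reads in untagged cells at 30°C, 8.97% and 9.02% in Hel2-HTP wildtype and 5.13% and 8.12% in *new1Δ*. The tagged libraries at 20°C had 4.32% to 12.6%. Coverage of 25S was therefore uneven in the tagged groups and in untagged cells at 30°C.

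**Figure D5:**
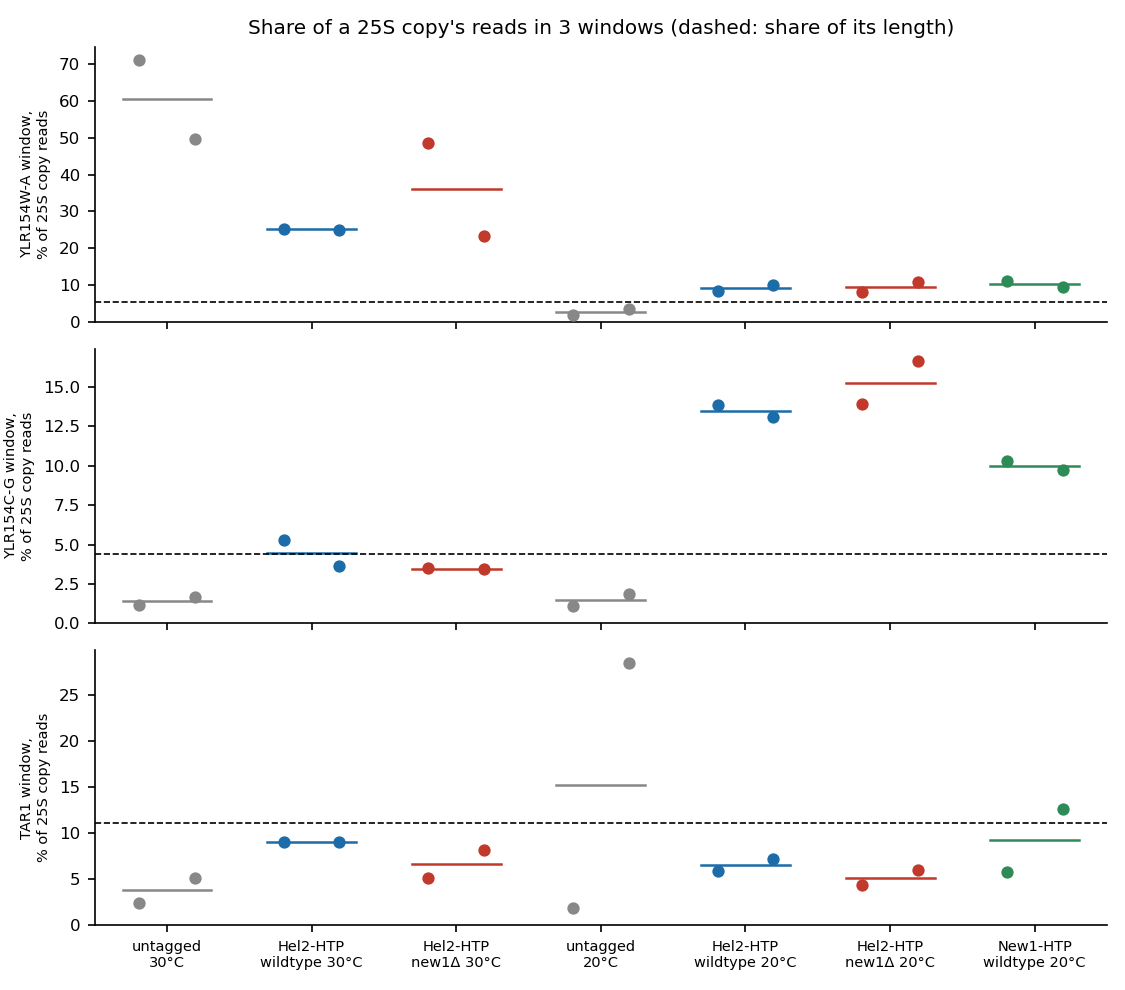
Each panel plots the percent of the reads of a 25S copy that fell in 1 window, per library, with lines for means of 2 replicates and a dashed line at the window's share of the length. YLR154W-A lies far above its line of 5.48% in the untagged libraries at 30°C, and YLR154C-G lies above its line of 4.42% in the tagged libraries at 20°C.

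The precursor and its spacers were rare among the reads of the tagged libraries. Reads on the 35S features beyond 18S, 5.8S and 25S were 0.643% and 0.484% of 35S reads in Hel2-HTP wildtype at 30°C, and 0.609% and 0.450% in *new1Δ*. In untagged cells at 30°C they were 0.424% and 0.940%. With a length share of 21.9%, the spacers thus held far fewer reads per nucleotide than the mature RNAs. At 20°C the share was 0.683% and 1.55% in Hel2-HTP wildtype and 0.323% and 0.248% in *new1Δ*, with no overlap. New1-HTP had 0.332% and 2.15%, the widest pair among the tagged groups.

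The log2 ratio of spacer to mature reads differed between *new1Δ* and wildtype by −1.88 at 20°C and by −0.09 at 30°C, and by −0.98 over both (exact p = 0.111). The ratio did not differ detectably between temperatures over both strains (exact p = 1), between New1-HTP and Hel2-HTP (log2 −0.28, exact p = 1) or between Hel2-HTP and untagged at 30°C (log2 −0.23, exact p = 0.6). The counts do not say which spacer the reads came from, and a read that crosses the border of a mature RNA is counted there and not as spacer.

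At 20°C the untagged replicate 2 stood apart from all other libraries in this measure. Of its 58577 reads on the 35S features, 21750 or 37.1% (Wilson interval 36.7% to 37.5%) lay beyond the mature RNAs, and so did 2592 of 6589 cDNAs (39.3%). In most libraries the YLR154W-E feature held nearly as many reads on the rDNA strand as RDN58-1, but in this one it held 951 reads against 520. It also had 7 reads on 5S, or 0.0190% of its rRNA. Its replicate had 0 such reads out of 265, which allows a share of up to 1.13%. The pair therefore gave no level of the spacers in untagged cells at 20°C.

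A list of 6 RNAs that act in cleavage of the precursor was looked at beside it. *SNR17A* and *SNR17B* encode U3, *SNR128* encodes U14, and *SNR30* and *SNR10* encode further small nucleolar RNAs that act in the cuts that free 18S. *NME1* encodes the RNA of RNase MRP, which cuts in ITS1. All 6 were tested in each of the 6 comparisons, and edgeR called 0 higher and 0 lower, with 1 or 2 of them at an unadjusted p under 0.05 in each. Of all rows, 304 of 6351 reached this between *new1Δ* and wildtype at 20°C, 111 at 30°C and 124 in the difference of these effects. Between temperatures it was 791 of 6351, against untagged cells 657 of 5681 and with New1-HTP 151 of 5161. DESeq2 called *NME1* between *new1Δ* and wildtype at 20°C and *SNR128* between temperatures. Their median log2 difference between *new1Δ* and wildtype was −0.62 at 20°C, where the median of all rows was −0.66, and 0.46 at 30°C, where that of all rows was −0.0153. In the difference of these effects it was −1.02, against −1.10 for all rows. It was −1.64 between New1-HTP and Hel2-HTP, against 0.0364 for all rows. Between Hel2-HTP and untagged at 30°C it was −0.35, against 0.62, and between temperatures −1.23, against −0.87. Of 21 protein-coding features annotated in or across the rDNA, 8 passed the filter on low counts (5 in New1-HTP against Hel2-HTP). Of these, edgeR called 0, with 0 to 3 at an unadjusted p under 0.05. *TAR1* and YLR154W-F had 0 reads on their own strand in the Hel2-HTP libraries at 20°C and passed the filter through those at 30°C. The strains could not be compared on them at 20°C, and they were 2 of the 3 under 0.05 between temperatures. DESeq2 called YLR154C-G, which lies on the strand of 25S, between *new1Δ* and wildtype at 20°C and between temperatures. The share of all rows that DESeq2 called is not given here, so its calls in both lists have none beside them.

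Mitochondrial rRNA was barely seen. 15S had 0 to 196 reads in a library and 21S had 0 to 533. 15S was at 0 in 7 of the 14 libraries. The highest counts of both came from libraries at 20°C, 196 reads on 15S in a New1-HTP library and 533 on 21S in a Hel2-HTP wildtype library. Replicates differed widely, with 21S at 116 and 2 reads in *new1Δ* at 20°C and at 3 and 108 in wildtype at 30°C. The ratio of mitochondrial to cytosolic rRNA passed no test (exact p between 0.4 and 0.667 in the 4 comparisons).

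Antisense reads on the rRNA features amounted to at most 0.177% of the sense reads in any library, from 0 to 1751 reads.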

How the data were processed

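The authors aligned reads that had not been collapsed with Novoalign and counted sense reads per feature with pyReadCounters, version 1.4.2 for the 30°C and 1.4.4 for the 20°C libraries per the file headers, on the Ensembl release 74 annotation. The deposited counts are whole reads, not normalized, and a read on several features is counted on each, so the 35S features, which contain the others, were left out of totals and fits. The authors also deposited RPKM values, used only to read off the feature lengths, and a count of distinct cDNAs per feature that takes both strands, used as an alternative. Positions and sequences are from the R64 RefSeq tables, to which all 16 features matched.

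Copies of a species were summed. Ratios were taken as log2 with 0.5 reads added and compared by exact two-sided permutation tests, adjusted over 24. Fits used edgeR 4.0.16 (limma 3.58.1, R 4.3.3) with TMM, filterByExpr and the quasi-likelihood test, with Benjamini-Hochberg adjustment over all rows at 0.05, and were tested on simulated data first. Strains were compared in 1 fit that took all 8 Hel2-HTP libraries and had replicate pairs within temperature as a block, as the study formed its ratios within a replicate. The correlation of same-numbered deviations over 6598 features was 0.0250 at 20°C and 0.0678 at 30°C, so the numbers did not clearly pair the libraries. Other comparisons had no block. Alternatives were DESeq2 1.42.0, its size factors, total reads, other filters, cDNAs, copies as rows, pseudocounts, blocks, and each replicate left out, with the filter on low counts run again or, added after the data were seen, with the rows kept. Python 3.11.15, pandas 2.3.3, numpy 2.4.6, scipy 1.17.1 and matplotlib 3.10.9 did the rest. The described features were named by a rule that takes every rRNA feature. The members and gene lists were chosen with earlier results of these data known. New1-HTP in cells without *HEL2* was not analysed here.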

Additional observations from a re-analysis of the deposited data

Results flagged for a closer look

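The log2 ratio of spacer to mature reads moved in opposite directions with temperature in the 2 strains, in each replicate: it was higher at 20°C than at 30°C by 0.89 in wildtype, and the difference was −0.89 in *new1Δ*. The wildtype libraries had log2 ratios of −7.18 and −5.99 at 20°C, against −7.27 and −7.68 at 30°C. Replicate 1 at 20°C thus lay close to the libraries at 30°C, and most of the mean difference came from replicate 2. The *new1Δ* libraries had −8.27 and −8.65 at 20°C, against −7.35 and −7.79 at 30°C. Over both strains the difference between temperatures was −0.30 without wildtype replicate 2 at 20°C. The difference between strains was not tested. In distinct cDNAs on the 35S features, the share beyond the mature RNAs overlapped in wildtype, at 0.885% and 2.01% at 20°C and 0.801% and 1.19% at 30°C. In *new1Δ* it was 0.519% and 0.273% at 20°C and 1.07% and 1.23% at 30°C, with no overlap.

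Reads on 2 of the 25S windows where protein-coding features are annotated, those of *TAR1* and YLR154C-G, were counted within 25S in the comparisons of species. As shares of the reads of their copy, they lay above their untagged level in the Hel2-HTP libraries at 30°C. For the *TAR1* window the lowest Hel2-HTP library had 5.13% of the reads of its 25S copy, against 5.08% in the higher untagged library. In distinct cDNAs the libraries overlapped on this window, with 7.22% in *new1Δ* replicate 1 against 9.15% in untagged replicate 2. For the YLR154C-G window the lowest Hel2-HTP library had 3.43%, against 1.67%. The YLR154W-A window held a larger share of its copy in untagged than in Hel2-HTP cells at 30°C. Neither of the flagged shares was computed without it. No group had the 4 libraries that the check for a single outlying library needs.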

How the results depend on the processing

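Of the 6 counts of rRNA species called, under 115 alternatives, 81 stayed within 1.5 times, 15 were higher and 19 lower. Shares of all rows called are given for the main fits only, so these counts have none beside them. Each replicate was left out with the filter run again, which then kept more rows, and, added after the data were seen, with the rows of the full fit. For *new1Δ* against wildtype at 20°C, where 1 species was called, DESeq2 called 3, DESeq2 size factors 2, no filter 3 and cDNAs 3. A minimum of 10 reads per library, no replicate block, and only the compared libraries each called 0. Fits without a replicate, counted among the 19 lower, left 1 whole pair at 20°C. Their loss of the call was largely set by the design. At 30°C DESeq2 called 1 and no filter 2. For the difference between the temperatures in that effect, no filter called 1 and cDNAs 1. Between New1-HTP and Hel2-HTP, DESeq2 called 1, no filter 4 and the replicate block 1. Against untagged cells, DESeq2, total reads, 10 reads and cDNAs each called 2, the compared libraries alone 0, and fits without a replicate 0 to 1. Between temperatures, copies as separate rows gave 1 species with all its copies called, and fits without a replicate called 2 to 4, where 18S joined in all 8 with the filter run again and in 3 of 8 with the rows of the full fit.

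Of 460 alternatives to the log2 differences, 32 reversed, all of differences that had not passed. With total reads, 5.8S for *new1Δ* at 20°C became −0.0699, 18S at 30°C −0.0447 (with cDNAs −0.0794), and 5S in the difference of effects −0.16 (no filter −0.0770, separate copies −0.0784). 5S against untagged cells became −0.34 with DESeq2 and with its size factors, −0.50 with total reads, −0.18 with 10 reads and −0.37 with cDNAs. Without a replicate, 25S ranged from −0.23 to 0.76 (rows of the full fit 0.77) for *new1Δ* at 30°C and from −0.19 to 0.81 (0.82) in the difference of effects, 5S there from −0.18 to 0.23 (with the rows of the full fit −0.28 to 0.25, and −0.15, −0.14 and −0.13 where it also reversed), and 5S against untagged cells from −0.18 to 0.65.

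Of 220 alternatives to the shares and ratios, 18 reversed. Over rRNA and mRNA alone, the rRNA share was 2.35 points higher with New1-HTP. Without the YLR154W-A window (added after the data were seen), 18S to 25S differed by 0.0764 for *new1Δ* and by −0.11 between temperatures, and with cDNAs the spacer ratio differed by −0.58 between temperatures. Without a replicate, the 18S to 25S difference for *new1Δ* ranged from −0.19 to 0.0869, the spacer ratio from −0.30 to 0.30 between temperatures, from −1.65 to 1.08 for New1-HTP and from −0.81 to 0.35 against untagged cells, and the mitochondrial ratio from −2.22 to 0.81 for *new1Δ* and from −0.38 to 2.66 between temperatures. The causes of these changes were not tested. No permutation test could reach 0.05 in these designs.

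The replicate block carried the 18S call at 20°C (log2 0.69, adjusted p = 0.353 with edgeR and no replicate block) and added 5S for New1-HTP (log2 0.69, adjusted p = 0.0315).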
